A study of Chelidonium majus with 4 samples.

Results

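Tyrosine/dopa decarboxylase (*TYDC*) and N-methylcoclaurine 3′-hydroxylase (*CYP80B1*) are both needed before (*S*)-reticuline can be made in *Chelidonium majus*, the greater celandine. They are represented here by 5 contigs, that is 5 assembled transcripts, of the 232701 in the deposited table. The contigs were taken by the enzyme name the study gave them in its pathway scheme. There are 2 for *TYDC*, TR59161|c174098_g1_i1 and TR190071|c90970_g1_i1, and 3 for *CYP80B1*, TR12711|c35113_g1_i1, TR12712|c35114_g1_i1 and TR127110|c35122_g1_i1. The study chose the contigs of its scheme from the same libraries, so that their direction is not independent evidence of a difference between tissues. All 5 exceeded 1 CPM (counts per 1000000 counts of the library) in 2 libraries or more and were tested together with 47380 other contigs.

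Root and leaf of the same ecotype were compared. The plants were a high chelidonine producer raised in a greenhouse, without any treatment, and no age is stated for them. Each tissue has 2 libraries, root 2 and root 4 against leaf 3 and leaf 4, numbered as in the sample names. The study calls them biological replicates, but nothing ties a library to a plant of its own or says whether plants were pooled, so the p-values measure only the spread between these libraries. Totals ranged from 15281682 to 19781065 estimated counts per library. Root 2 stood apart from the others. Its 100 most abundant contigs held 30.7% of its counts, against 11.4% to 20.0% in the other libraries, and its TMM scaling factor was 0.731, against 1.04 to 1.19. Over the tested contigs the correlation of log2 CPM (Pearson's r, given as a description) was 0.914 between the root libraries, 0.974 between the leaf libraries and 0.502 to 0.532 between a root and a leaf library. Contigs carry no gene names in the table, so that the tissues were not checked against marker genes. In whole tissue, fewer cells of a type and less RNA per cell cannot be told apart.

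*TYDC* removes the carboxyl group of tyrosine or of dopa and gives tyramine or dopamine. Dopamine is one of the substrates that norcoclaurine synthase (*NCS*) joins into the first benzylisoquinoline. *TYDC* also feeds tyramine into other routes, such as the hydroxycinnamic acid amides of wounded cell walls, and in opium poppy it is a gene family whose members differ between organs. *CYP80B1* is a membrane-bound cytochrome P450, first described in California poppy, that adds a hydroxyl group to N-methylcoclaurine. It acts after *NCS*, 6-O-methyltransferase and coclaurine N-methyltransferase (*CNMT*), and just before the last methylation that gives (*S*)-reticuline, the branch point to the sanguinarine, berberine and morphine routes.

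Both *TYDC* contigs had higher levels in both root libraries than in either leaf library, and few counts in leaf. That order followed from the filter of over 1 CPM, which both contigs passed through the root libraries alone. For TR59161|c174098_g1_i1 there were 78 and 100 counts in root 2 and root 4, against 2 and 1 in leaf 3 and leaf 4. After TMM scaling, this was 5.39 and 5.48 CPM in the root libraries, against 0.107 and 0.0471 CPM in the leaf libraries. The root libraries lay far above the leaf libraries, where the contig was at the edge of detection. They were close together only after TMM scaling, as without it the root libraries had 3.94 and 6.54 CPM, against 0.112 and 0.0519 CPM in the leaf libraries. From the summed counts, the root to leaf ratio of TR59161|c174098_g1_i1 was 72.3, with a 95% counting interval (Clopper-Pearson) of 24.3 to 354. Such intervals cover counting error only. The quasi-likelihood fit of edgeR put its log2 fold change, root minus leaf, at 6.04 (± 0.55 standard error, 95% interval 4.68 to 7.41), with an FDR (Benjamini-Hochberg adjusted p over all tested contigs) of 0.00143.

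The second *TYDC* contig was less even between libraries. TR190071|c90970_g1_i1 had 36 and 66 counts in root 2 and root 4, against 2 and 13 in leaf 3 and leaf 4. Scaled, this was 2.49 and 3.62 CPM in root, against 0.107 and 0.612 CPM in leaf. Leaf 4 stood 2.51 above leaf 3 on the log2 scale. The gap between the leaf libraries was wide for this contig, since over 45434 tested contigs with counts in both leaf libraries the median gap was 0.263. The same fit put its log2 fold change at 3.03 (± 0.76 standard error, 95% interval 1.15 to 4.92), with an FDR of 0.0266. The value rested on the leaf libraries: it was 2.25 without leaf 3 (FDR 0.0843 by the quasi-likelihood test) and 4.74 without leaf 4 (FDR 0.0116). In such fits the tissue left with 1 library is assumed to vary like the other tissue, which alone gives the spread.

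Summed over both contigs, *TYDC* averaged 8.49 ± 0.863 normalized CPM over the root libraries, against 0.437 ± 0.314 over the leaf libraries (SD, n = 2 each). Its summed log2 fold change was 4.24 ± 0.54 (standard error), at an FDR of 0.00371 by edgeR's quasi-likelihood fit. It was 3.62 without leaf 3 and 5.26 without leaf 4. The division of counts between the *TYDC* contigs was given as the share of TR59161, which needs no scaling. This share was 68.4% (95% Clopper-Pearson interval 59.1 to 76.8) of 114 counts in root 2 and 60.2% (52.4 to 67.7) of 166 counts in root 4. It was 50% (6.76 to 93.2) of 4 counts in leaf 3 and 7.14% (0.181 to 33.9) of 14 counts in leaf 4. TR59161 was thus the larger part in both root libraries, and the smaller part in leaf 4, while leaf 3 held too few counts to place it. The exact two-sided permutation test over libraries gave p = 0.333 for the difference in the log2 ratio of both contigs, 2.71 on average, which is the smallest p that 2 libraries against 2 allow.

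**Figure D1:**
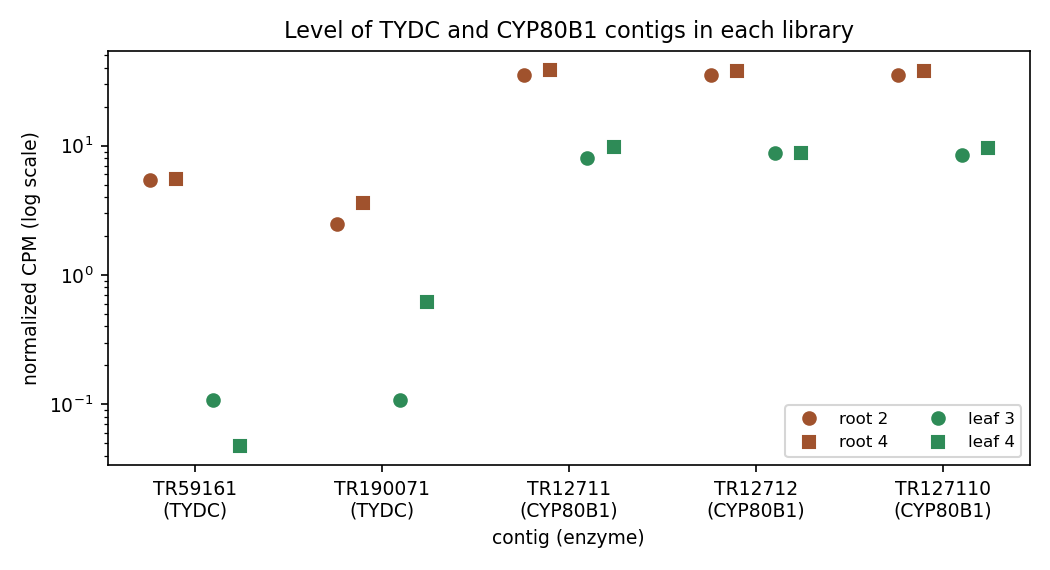
Level of each *TYDC* and *CYP80B1* contig in root 2, root 4, leaf 3 and leaf 4, as TMM-normalized CPM on a log axis, with 1 point per library. In all 5 contigs both root points lie above both leaf points, as in 36.5% of the tested contigs. For the *TYDC* contigs this order followed from the filter of over 1 CPM. CPM are not divided by contig length, so heights can be read between libraries of a contig and not between contigs.

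The 3 *CYP80B1* contigs had nearly the same counts as each other in every library, with levels in root about 4 times those in leaf. TR12711|c35113_g1_i1 had 510 and 706 counts in root 2 and root 4, against 148 and 209 in leaf 3 and leaf 4, which is 35.3 and 38.7 normalized CPM in root, against 7.95 and 9.84 CPM in leaf. TR12712|c35114_g1_i1 had 512 and 684 counts in root, against 162 and 186 in leaf. TR127110|c35122_g1_i1 had 510 and 690 counts in root, against 158 and 203 in leaf. In each of them both root libraries lay above both leaf libraries, as in 36.5% of the tested contigs. By edgeR's quasi-likelihood fit the log2 fold change was 2.05 ± 0.26 for TR12711 (FDR 0.00360), 2.06 ± 0.24 for TR12712 (FDR 0.00286) and 2.02 ± 0.25 for TR127110 (FDR 0.00323), with standard errors after the ±. Each contig took between 31.1% and 34.95% of the *CYP80B1* counts of every library, so that the division among them was much alike in root and leaf.

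The *CYP80B1* sum was 1532 and 2080 counts in root 2 and root 4, against 468 and 598 in leaf 3 and leaf 4. It averaged 110 ± 5.75 normalized CPM over the root libraries, against 26.6 ± 2.13 over the leaf libraries (SD, n = 2 each). The summed log2 fold change was 2.04 ± 0.27 (standard error, 95% interval 1.37 to 2.72), at an FDR of 0.00405 by edgeR's quasi-likelihood fit. The interval holds 2 on the log2 scale, the 4-fold limit applied here to calls. How alike the root libraries were depended on the scaling. Per 1000000 counts of the whole library, without TMM, the *CYP80B1* sum was 77.4 CPM in root 2 and 136 CPM in root 4, against 26.1 CPM in leaf 3 and 31.0 CPM in leaf 4. With library totals the log2 fold change was 1.90, below the limit of 2, while the median of all tested contigs also moved, to -0.138 from 0.00616 with TMM.

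Set against all tested contigs, all 5 contigs lay on the root side, but whether they met the strictest limits depended on the test. The 3 *CYP80B1* contigs are counted contig by contig here, although their counts were nearly equal in every library. The limits, an FDR under 0.001 and 4-fold or more, follow the study's methods. The study used edgeR but does not state which of its tests, so the main test here may differ from its own. With these limits, edgeR's quasi-likelihood test called 0 of the 5 contigs higher in root, against 0.443% of the tested contigs. With an FDR under 0.05 and 4-fold it called all 5, against 10.6% of the tested contigs, and at an unadjusted p under 0.05 all 5, against 24.1%. At the stricter limits, edgeR's exact test called 5 (10% of the tested contigs), DESeq2 called 4 (8.76%), leaving out TR190071, and limma-voom called 1 (1.82%), which was TR59161. With a library left out, the spread came from the other tissue alone and calls grew more frequent over all contigs. The quasi-likelihood test then called 4 of the 5 without root 2 (8.43% of the tested contigs), 2 without root 4 (11.9%), 1 without leaf 3 (4.94%) and 0 without leaf 4 (1.07%). Both root libraries lay above both leaf libraries in all 5, as they did in 36.5% of the tested contigs. Both *TYDC* contigs passed the filter of over 1 CPM through the root libraries alone, being under 1 CPM in both leaf libraries, so that for them this order followed from the filter. A higher log2 fold change than that of the *TYDC* sum was found in 2614 of the 47385 tested contigs (5.52%), and a higher one than that of the *CYP80B1* sum in 5178 (10.9%).

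**Figure D2:**
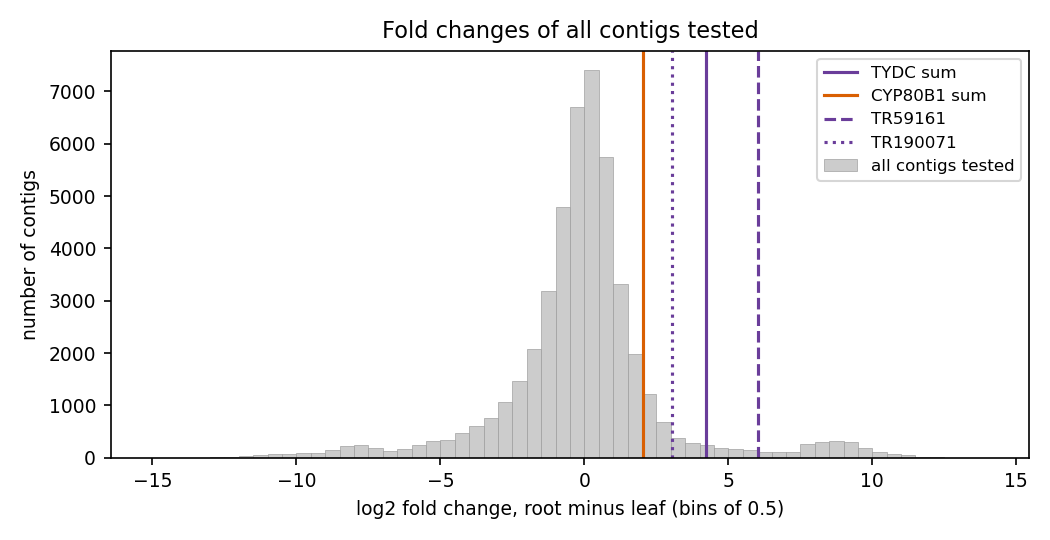
Histogram of the log2 fold change, root minus leaf, of the 47385 tested contigs in bins of 0.5, with the number of contigs on the y axis. Lines mark the sums of *TYDC* (4.24) and *CYP80B1* (2.04) and the *TYDC* contigs TR59161 (6.04) and TR190071 (3.03). The *CYP80B1* sum lies on the right shoulder of the main peak and the *TYDC* sum beyond it.

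The *CYP80B1* contigs were not assembled alone. By the numbering of the identifiers they belong to a component of 12 contigs, c35113 to c35124, and only 3 of these carry an enzyme name in the sources used. Each *TYDC* contig is the only one of its component. Of the 12 contigs, 9 had over 100 counts in every library, the 3 of *CYP80B1* and 6 without an enzyme name in the sources used here. The counts of these 9 contigs were nearly equal within each library. They ran from 457 to 512 in root 2 and from 665 to 706 in root 4, against 148 to 181 in leaf 3 and 186 to 222 in leaf 4. Their standard deviation was 18.2 counts in root 2 and 12.8 in root 4, against 10.8 in leaf 3 and 10.8 in leaf 4. Counting alone would give 22.1, 26.1, 12.9 and 14.3 in the same order of libraries, the square root of the mean, so the 9 differed by less than sampling noise. RSEM divides reads that fit several contigs among them, and whether these 9 shared reads was not tested. They are therefore not taken as separate measurements, although the counts of contigs called list the 3 named ones contig by contig.

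The contigs named *CYP80B1* were those of the 9 with the largest fold changes. Their log2 fold changes were 2.02 to 2.06, and those of the other 6 were 1.81 to 1.98 (standard errors 0.24 to 0.26 over all 9). With TMM scaling, the 4-fold limit, a log2 fold change of 2, therefore ran between them. At or above it were 3 of 3 named contigs and 0 of 6 others. The study set the same limit on these libraries, so this division may not be independent of its choice of contigs. TR127110 lay just inside the limit at 2.02, and TR12713|c35115_g1_i1 just outside at 1.98, with 492 and 691 counts in root 2 and root 4, against 164 and 200 in leaf 3 and leaf 4. These contigs differed by far less than their standard errors. The FDR of the other 6 was 0.00335 to 0.00443 by the quasi-likelihood fit of edgeR, and that of the named ones 0.00286 to 0.00360. With library totals in place of TMM, all 3 named contigs fell below the limit, at 1.87 to 1.92. Without the 100 most abundant contigs in the TMM factors, they lay at 1.95 to 1.99, below it too. The named contigs held 34.7% and 33.9% of the counts of the 9 in root 2 and root 4, against 31.3% and 32.4% in leaf 3 and leaf 4. Summed over all 9, the log2 fold change was 1.94 (FDR 0.00683), and over all 12 it was 1.94 (FDR 0.00685), sums that were chosen after their values were seen.

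Another 3 contigs of the component had few counts. TR127112|c35124_g1_i1 had 39 and 17 counts in root 2 and root 4, against 12 and 3 in leaf 3 and leaf 4 (log2 fold change 2.20 ± 0.89 standard error, FDR 0.108 by the quasi-likelihood fit of edgeR). TR12716|c35118_g1_i1 had 2 and 4 counts in root, against 5 and 7 in leaf, and TR12718|c35120_g1_i1 had 0 and 1 in root, against 1 and 1 in leaf. The last pair did not pass the filter and was not tested.

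**Figure D3:**
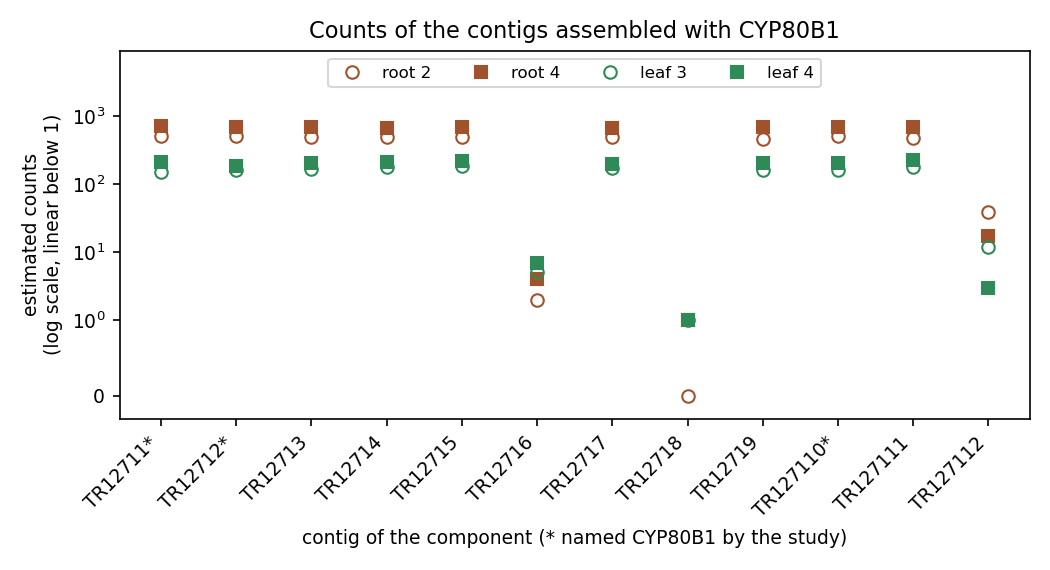
Estimated counts of the 12 contigs of the *CYP80B1* component in root 2, root 4, leaf 3 and leaf 4, on a log axis that is linear below 1. Stars mark the 3 contigs named *CYP80B1*. The 9 contigs with over 100 counts form level rows in each library, from 457 to 706 in root and from 148 to 222 in leaf, and 3 contigs lie far below.

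**Figure D4:**
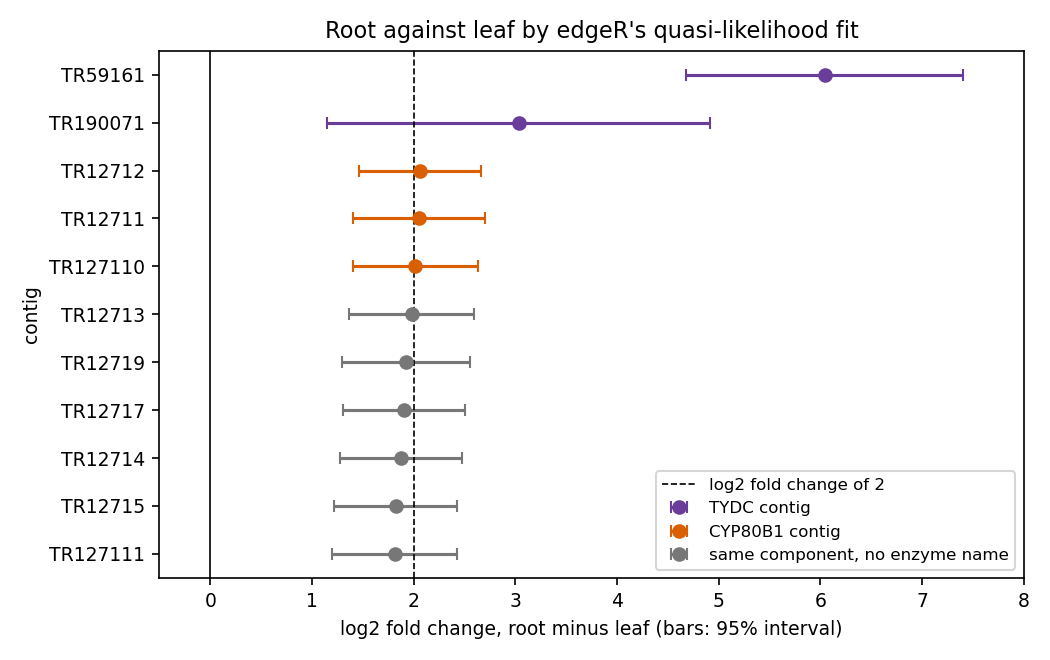
Log2 fold change, root minus leaf, of the *TYDC* contigs and of the 9 *CYP80B1* component contigs with over 100 counts, with 95% intervals from edgeR's quasi-likelihood fit and a dashed line at 2, the 4-fold limit. The named *CYP80B1* contigs lie at 2.02 to 2.06 and the 6 others at 1.81 to 1.98, with intervals that overlap almost entirely.

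Whether the tissue difference was larger for *TYDC* than for *CYP80B1* was asked with a ratio taken within each library, which no scaling can change. Contig lengths are not in the table, so the ratio is compared between tissues and is no measure of which enzyme had more transcript. For every 100 *CYP80B1* counts there were 7.44 *TYDC* counts in root 2 (95% counting interval 6.10 to 9.01) and 7.98 in root 4 (6.77 to 9.35). In leaf 3 there were 0.855 (0.232 to 2.20) and in leaf 4 there were 2.34 (1.27 to 3.96). The root libraries lay within each other's intervals and above both leaf libraries. The log2 ratio was 2.45 higher in root than in leaf on average, a factor of 5.45, with an exact two-sided permutation p of 0.333, the smallest that this design allows. A test of edgeR for a difference in fold change between parts of a unit (diffSpliceDGE) was chosen after these values were seen. By it, the log2 fold changes of the *TYDC* and *CYP80B1* sums differed by 2.19 (adjusted p = 0.0222 over the 4 pairs compared). Both *TYDC* contigs were tested only through their root counts, so this p-value is not independent evidence of a larger difference. With a library left out, the difference was 2.23 without root 2 and 2.13 without root 4, each at an adjusted p of 0.0808 over the 4 such edgeR fits, past 0.05. It was 1.71 without leaf 3 and 3.13 without leaf 4, each at an adjusted p of 0.0154 over the same edgeR fits. In each of these fits too, the spread came from the tissue with both libraries alone, so the adjusted p-values with and without a library rest on different estimates of it.

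Of the *TYDC* contigs, TR59161 differed more from *CYP80B1*. It had 5.09 and 4.81 counts per 100 *CYP80B1* counts in root 2 and root 4, against 0.427 and 0.167 in leaf 3 and leaf 4. Its log2 fold change exceeded that of the *CYP80B1* sum by 4.0 (adjusted p = 0.000628 over the 4 pairs, edgeR's diffSpliceDGE). As TR59161 was tested only through its root counts, this p-value is not independent evidence of a larger difference. TR190071 had 2.35 and 3.17 counts per 100 *CYP80B1* counts in root 2 and root 4, against 0.427 and 2.17 in leaf 3 and leaf 4, so that leaf 4 was close to root 2. For TR190071 the log2 difference from *CYP80B1* was 0.99 and did not pass (adjusted p = 0.24 over the 4 pairs, edgeR's diffSpliceDGE). The within-library log2 ratio of TR190071 to *CYP80B1* was 1.50 higher in root than in leaf with all libraries, 0.33 higher without leaf 3 and 2.68 higher without leaf 4. Between the *TYDC* contigs the log2 fold changes differed by 3.01 (adjusted p = 0.0885 over the 4 pairs, by the same edgeR test), which did not pass 0.05 either.

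**Figure D5:**
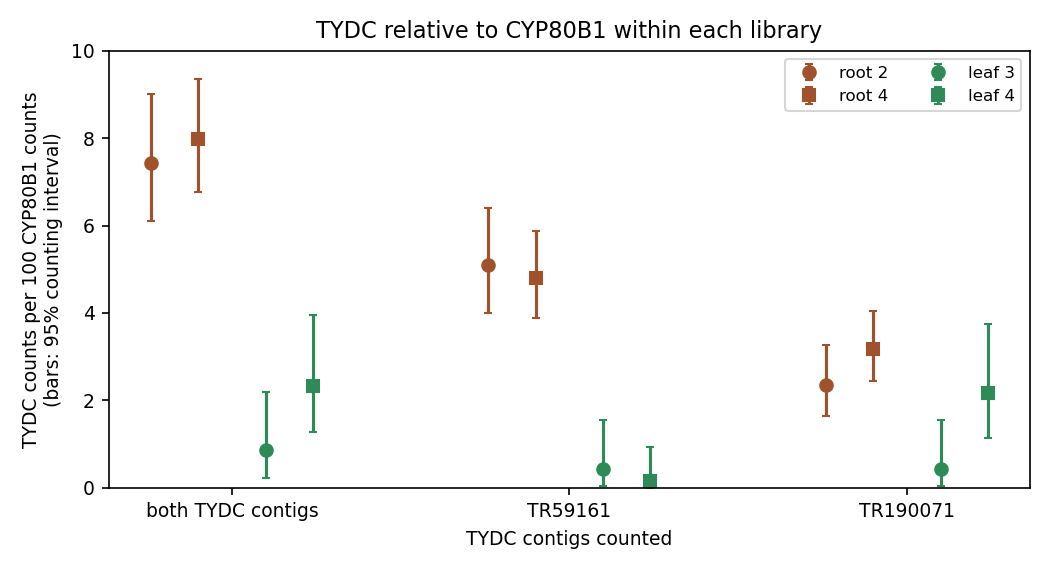
*TYDC* counts per 100 *CYP80B1* counts in root 2, root 4, leaf 3 and leaf 4, for both *TYDC* contigs together and for each alone, with 95% Clopper-Pearson intervals of the counting error. For both contigs together root stands at 7.44 and 7.98, against 0.855 and 2.34 in leaf. TR59161 separates the tissues widely, while TR190071 in leaf 4 (2.17) reaches nearly the value of root 2 (2.35).

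Of the steps between these enzymes, only *NCS* and *CNMT* were looked at. For each, the 2 contigs with most counts were taken among those that an earlier report on these data names. All 4 had higher levels in both root libraries than in either leaf library, as did 36.5% of the tested contigs. Of the 4, 1 was called higher in root by edgeR's quasi-likelihood test at an FDR under 0.001 and 4-fold, against 0.443% of the tested contigs. This was TR33141|c129754_g1_i1 of *NCS*, with 1030 and 1267 counts in root 2 and root 4, against 54 and 72 in leaf 3 and leaf 4, at a log2 fold change of 4.48 (FDR 0.000878, edgeR). The other *NCS* contig, TR11741|c23152_g1_i1, had a log2 fold change of 3.14 (FDR 0.00178, same test). TR9583|c227042_g1_i1 and TR9581|c227040_g1_i1 of *CNMT*, the methyltransferase just before *CYP80B1*, were at 2.09 (FDR 0.00441) and 2.23 (FDR 0.00285). Their numbering places both *CNMT* contigs in 1 component, so they may not be separate measurements. By value, the *TYDC* sum (4.24) thus lay between the *NCS* contigs, and the *CYP80B1* sum (2.04) beside these *CNMT* contigs, differences that were not tested. This holds for the contigs taken and not for the enzyme, as *CNMT* contigs ran both ways. TR72971|c194735_g1_i1 of *CNMT*, named here after its values were seen, had 5 and 21 counts in root 2 and root 4, against 282 and 436 in leaf 3 and leaf 4, at a log2 fold change of -4.52 (FDR 0.00315, edgeR). Per 100 counts of TR33141 there were 11.1 and 13.1 *TYDC* counts in root 2 and root 4. In leaf 3 and leaf 4 there were 7.41 (1.95 to 20.1) and 19.4 (10.1 to 34.8), so this ratio overlapped between the tissues. That depended on the *NCS* contig. TR11741 had 1036 and 924 counts in root 2 and root 4, against 121 and 157 in leaf 3 and leaf 4. The *TYDC* sum had 114 and 166 counts in root, against 4 and 14 in leaf. Its ratio to TR11741 was thus higher in both root libraries than in either leaf library, which was not tested.

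Contigs with the most similar pattern were sought by the distance between log2 CPM profiles over the 4 libraries, each centred on its mean, among 47380 other tested contigs. Nearest to the *CYP80B1* sum were TR225931|c102099_g1_i1 at a distance of 0.0330, TR9583|c227042_g1_i1, the *CNMT* contig, at 0.0560, and TR37061|c137177_g1_i1 at 0.0677. For every 100 counts of TR9583 there were 61.4 and 63.4 *CYP80B1* counts in root 2 and root 4. In leaf 3 and leaf 4 there were 64.6 and 64.1. That this ratio hardly moved restates the small distance and is no further evidence. Such profiles were common, as 781 contigs lay within a distance of 0.5 of the *CYP80B1* sum. Nearest to the *TYDC* sum were TR138231|c47980_g1_i1 at 0.0335, TR97021|c228599_g1_i1 at 0.181 and TR83611|c209898_g1_i1 at 0.184, and 25 contigs lay within 0.5. The first of these had 58 and 82 counts in root 2 and root 4, against 1 and 6 in leaf 3 and leaf 4. With 4 libraries, such likeness describes the profiles and no more. Apart from the *CNMT* contig, these contigs have no name in the sources used here.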

How the data were processed

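The deposited values are expected counts (estimated counts) per contig, which the authors obtained by Bowtie alignment of each library to the BinPacker assembly followed by RSEM. RSEM and edgeR also stand in the submitters' processing notes, without versions. All 232701 rows and 4 columns of values were read. Every value was whole, so rounding changed nothing.

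A contig was tested if it exceeded 1 CPM in 2 or more libraries (47385 did). Library sizes were the column totals. Root and leaf were compared by edgeR 4.0.16 (R 4.3.3), with TMM scaling, a quasi-likelihood F test and Benjamini-Hochberg adjustment over all contigs tested. The biological coefficient of variation was 0.335. A call needed an FDR under 0.001 and a log2 fold change of at least 2 in size. The standard error is the size of the log2 fold change over the root of its F statistic. Enzyme sums were fitted in a table in which an enzyme forms 1 row. Profiles for likeness used a prior count of 2. The fit was tested on simulated data. DESeq2 1.42.0 and limma 3.58.1 served as alternatives, beside other scalings, filters, thinning and each library left out.

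Named are the 5 contigs, the enzyme sums, the other contigs of their component and the 3 nearest profiles per enzyme. For *NCS* and *CNMT*, the 2 contigs with most counts among those in an earlier report on these data are named. Members and lists were chosen with earlier results of these data known. Sequences, contig lengths and positions were not analysed here.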

Additional observations from a re-analysis of the deposited data

How the results depend on the processing

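No paired analysis was possible because the root and leaf libraries share only the number 4. The log2 fold changes of both enzyme sums kept their direction under every alternative run. Neither sum was called at the study's limits by the quasi-likelihood test, nor with limma-voom, other scalings, a filter of 10 counts in 2 libraries or thinning to the smallest total. The sums of *TYDC* and *CYP80B1* were called with DESeq2 (4.25 and 2.04), edgeR's exact test (4.24 and 2.04), no filter on low counts (4.19 and 2.00) and an FDR under 0.05 (4.24 and 2.04). Of the 5 contigs, 0 were called, beside 210 of the 47385 tested contigs called higher in root. The fit with no filter called 4, beside 7594 of the 217839 contigs it tested. Over the 47385, DESeq2 called 4 (beside 4152), the exact test 5 (beside 4741) and limma-voom 1 (beside 862). An FDR under 0.05 gave 5 (beside 5042). With a library left out and the tested contigs kept, the tissue with 1 library is assumed to vary like the other. Then 0 to 4 of the 5 were called, beside 1.07% to 11.9% of all tested contigs called higher in root, the *TYDC* sum ran from 3.62 to 5.26 and the *CYP80B1* sum from 1.91 to 2.13. The *TYDC* sum was then called without root 2, root 4 or leaf 3, and the *CYP80B1* sum without root 2. The root minus leaf difference of the within-library log2 ratio of *TYDC* to *CYP80B1* then ran from 1.72 to 3.17, and that of TR59161 to TR190071 from 0.86 to 4.56. The difference for *TYDC* to *CYP80B1* was 4.19 with the contig of most counts of each enzyme and 4.21 with TR59161 alone, since TR190071 was left out. Without the 100 most abundant contigs in the TMM factors, the *CYP80B1* sum was 1.98.

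Over all 47385 tested contigs there were 210 calls for root and 688 for leaf. The fit with no filter, which tested 217839 contigs instead, gave 7594 and 5488. Over the 47385, DESeq2 gave 4152 and 4914 calls, the exact test 4741 and 6167, and limma-voom 862 and 1639. An FDR under 0.05 gave 5042 and 6534 calls. With a library left out they ran from 507 to 5619 and from 1530 to 6897. The cause of these shifts was not tested. Of the tests on all 4 libraries, edgeR's exact test gave counts nearest to the study's own, whose filter is not specified. Depth limits *TYDC* most, which had 4 and 14 counts in the leaf libraries.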
